A study of Mus musculus with 2 samples.

Results

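Patients who lack AIRE make autoantibodies to a small set of endocrine enzymes and receptors, and patients with autoimmune gastritis to the acid pump of the stomach. The mouse genes of 10 such antigens were followed here: Nlrp5, Casr, Tgm4, Cyp11a1, Cyp17a1, Cyp21a1, Tph1, Th, Ddc and Atp4b. They were listed by name, with no threshold on a measured value, but with earlier results of these data known. Of the 10, 9 had a line in both deposited tables, among 23411 genes that did. The samples were mTECs, the epithelial cells of the thymic medulla, sorted with a FACS Aria III from B6 mice for which the labels name no allele and no agent. There was 1 library of the MHC-II high fraction and 1 of the MHC-II low fraction, each from a pool of 3 mice whose age the sources used here do not state. Each was made from Trizol-extracted RNA with a non-directional TruSeq kit on poly-A RNA, so reads of overlapping genes on opposite strands cannot be told apart. With pooled animals and no second library there is no replicate check, so every interval below covers counting error alone.

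In the thymic medulla, epithelial cells transcribe genes of peripheral organs, and the transcription regulator Aire drives part of that transcription. Developing T cells that recognise these products strongly are deleted or diverted to a regulatory fate. In people without functional AIRE this display is defective, and the parathyroid, adrenal cortex, gonads, gut endocrine cells and stomach are among the organs attacked.

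The libraries held 138368535 reads on genes in the MHC-II high and 56077479 in the MHC-II low table. Levels are in CPM, reads scaled to a TMM-adjusted library total, and levels of different genes are compared as CPM per kilobase of transcript. The sort is visible in Aire itself, at 571 CPM in the MHC-II high library, against 21.0 CPM in the MHC-II low library. The epithelial adhesion gene Epcam was at 621 CPM in the MHC-II high and 586 CPM in the MHC-II low library. Aire and Epcam were named after their values were seen. A gene is called higher or lower when its whole exact 95% Clopper-Pearson interval of the ratio, MHC-II high over MHC-II low, lies beyond 2-fold. Of 14 mTEC genes 6 were called higher and 3 lower. Those with the most reads were Cd74 (2.09-fold higher), H2-Aa (ratio 2.00) and the basal keratin gene Krt5. H2-Aa was called neither, but higher under the other scalings. Krt5 was lower, at 768 CPM in the MHC-II high library, against 5863 CPM in the MHC-II low library. Other scalings moved every log2 ratio up, by 0.11 with DESeq2 size factors, 0.29 with unscaled totals and 1.003 with the read totals that the authors' RPKM values imply (RPKM read totals), with which 10 of the mTEC genes were called higher and 3 lower.

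Markers of other cells differed between the fractions too. All 8 endothelial genes, with Pecam1, Vwf and Plvap ahead in reads, were lower, summing to 80.1 CPM in the MHC-II high library, against 575 CPM in the MHC-II low library. Of 7 fibroblast genes 5 were lower (190 CPM in the MHC-II high library, against 1088 CPM in the MHC-II low library), led by Dcn, Col3a1 and Col1a2. Of 7 erythroid genes 4 were lower (109 CPM in the MHC-II high library, against 3975 CPM in the MHC-II low library), led by Hba-a1, Hba-a2 and Hbb-bs. Hba-a1 and Hba-a2 have identical counts, 5016 reads in the MHC-II high and 68152 in the MHC-II low library. These counts enter the erythroid call count and sum for each of the 2 genes. Of 10 dendritic cell and macrophage genes 5 were called higher and 0 lower (452 CPM in the MHC-II high library, against 115 CPM in the MHC-II low library). Lyz2 made up most of both sums, at 362 CPM in the MHC-II high and 74.0 CPM in the MHC-II low library. Next in reads were Itgam and Zbtb46, called neither at ratios of 1.82 and 1.90, and higher with unscaled totals and RPKM read totals. The ratio was below 1 for 3 of the 10. Of 11 thymocyte and B cell genes 3 were higher and 2 lower (45.5 CPM in the MHC-II high library, against 56.8 CPM in the MHC-II low library), with Cd4, Rag1 and Cd8a ahead in reads, while with RPKM read totals 5 were higher and 0 lower. None of the marker genes read here was at 0 reads in either library, and their part in the antigens' ratios was not tested.

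In bulk libraries, fewer cells of a type and less RNA per cell cannot be told apart in any of the ratios that follow. With TMM the antigens fell apart into a group with large ratios and a group called neither. Th, Atp4b, Tph1, Cyp17a1 and Cyp11a1 were called higher in the MHC-II high library, between 4.77-fold and 12.6-fold. Tgm4, Ddc and Casr had ratios of 1.16, 1.15 and 1.08, and Cyp21a1 one of 0.69. Thus 5 of the 9 were called higher and 0 lower, while 12.4% of all genes with a read were called higher and 16.7% lower. All 9 had reads in both libraries and entered these counts without a minimum. Among genes with a mean of at least 1 CPM, where 8 of the 9 antigens lay, 14.5% were called higher and 10.9% lower. Since the antigens were chosen with earlier results of these data known, the contrast with all genes is a description only. The median log2 ratio over the 9 was 2.25, beside −0.14 over all genes. Over the genes with a mean of at least 1 CPM it was −0.013. With the RPKM read totals Casr and Ddc were called higher too, which made 7 of 9. Those totals raise every ratio alike. With them 8501 of the 22947 genes with a read were called higher, against 2837 with TMM.

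**Figure D1:**
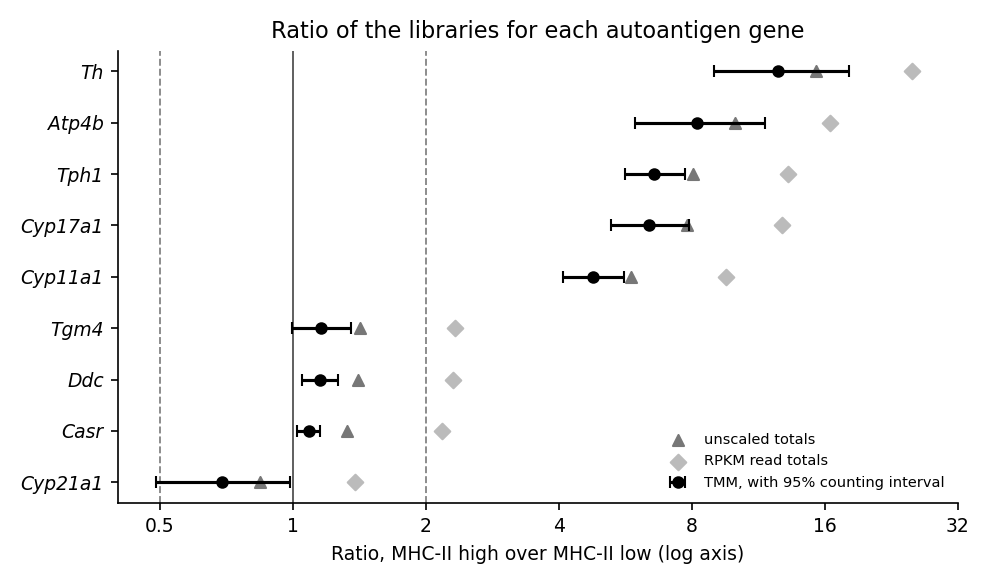
Ratio of the MHC-II high to the MHC-II low library for the 9 antigens with a line in both tables, on a log axis. Black points are TMM-scaled ratios with exact 95% counting intervals, triangles use unscaled totals, diamonds the RPKM read totals, and dashed lines mark 2-fold either way; Th, Atp4b, Tph1, Cyp17a1 and Cyp11a1 lie right of the 2-fold line under each of these scalings.

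Promoter letters are shown for a gene pair that shares a pathway but not a ratio, Th and Ddc, and for 1 further gene from each of the groups, Tph1 and Tgm4. They come from RefSeq on build GRCm38.p6, which is not the build of the read counts, and were matched by symbol. Of the 9 antigens 6 had a match, and where a gene had several starts the one nearest the start of the counted transcript was taken. Each runs from 250 bases before to 50 bases after the start, 5′ to 3′ on the strand of the gene. Capitals mark the TATA box TATAAA, the site AAGGTCA of the steroidogenic factor NR5A1 and the cyclic AMP response element TGACGTCA, searched on both strands.
Th, chr7:142899946-142900245, minus strand: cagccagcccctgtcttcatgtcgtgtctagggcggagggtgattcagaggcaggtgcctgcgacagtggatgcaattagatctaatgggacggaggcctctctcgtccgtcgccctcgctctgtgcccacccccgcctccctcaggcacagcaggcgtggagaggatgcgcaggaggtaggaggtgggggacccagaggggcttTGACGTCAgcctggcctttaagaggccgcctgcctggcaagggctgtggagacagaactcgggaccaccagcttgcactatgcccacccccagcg
Tph1, chr7:46672488-46672787, minus strand: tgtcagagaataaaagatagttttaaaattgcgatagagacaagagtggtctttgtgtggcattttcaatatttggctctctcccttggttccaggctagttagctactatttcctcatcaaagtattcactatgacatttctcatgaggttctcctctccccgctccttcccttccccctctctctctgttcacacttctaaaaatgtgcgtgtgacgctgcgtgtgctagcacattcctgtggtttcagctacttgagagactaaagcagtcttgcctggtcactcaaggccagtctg
Ddc, chr11:11898095-11898394, minus strand: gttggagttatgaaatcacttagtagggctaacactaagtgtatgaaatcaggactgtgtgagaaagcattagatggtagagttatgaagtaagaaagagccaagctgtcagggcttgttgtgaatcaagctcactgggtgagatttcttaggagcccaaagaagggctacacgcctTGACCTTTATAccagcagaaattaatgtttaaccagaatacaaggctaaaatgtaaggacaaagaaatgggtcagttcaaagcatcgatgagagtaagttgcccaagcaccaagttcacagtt
Tgm4, chr9:123034491-123034790, plus strand: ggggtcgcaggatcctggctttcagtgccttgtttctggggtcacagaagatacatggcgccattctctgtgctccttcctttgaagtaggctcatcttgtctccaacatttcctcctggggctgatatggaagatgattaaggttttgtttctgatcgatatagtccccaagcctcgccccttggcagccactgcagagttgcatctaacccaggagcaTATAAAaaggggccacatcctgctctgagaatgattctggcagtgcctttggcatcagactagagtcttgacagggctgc

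In Th the cyclic AMP response element began at position −45 from the start, and 1.79% of all 32851 listed promoters held this motif. In Tgm4 the TATA box began at position −30, and 13.6% of all promoters held one. In Ddc a TATA box at −68 and an NR5A1 site at −73 lay on the opposite strand and overlapped, and 4.72% of all promoters held an NR5A1 site. Tph1, Cyp11a1 and Casr held none of these letters in the window, which for Cyp11a1 lies 281 bases from the start of the counted transcript. The Th promoter had 15 CpG dinucleotides, Tph1 had 5, Casr and Tgm4 had 4 each, Ddc had 2 and Cyp11a1 had 1, beside a median of 7 over all promoters (quartiles 3 and 20). A match of letters is a description of the window and shows no binding.

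Th, tyrosine hydroxylase, catalyses the first step of dopamine, noradrenaline and adrenaline synthesis. It had 1323 reads in the MHC-II high library (8.66 CPM), against 35 reads in the MHC-II low library (0.689 CPM). This was the largest ratio of the 9, at 12.6 (interval 8.98 to 18.1). Its level per length stood at the 55.7 percentile of all genes in the MHC-II high library and at the 20.6 percentile in the MHC-II low library. Among the 9 antigens it ranked sixth by that level in the MHC-II high library and last in the MHC-II low library.

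Tph1, the tryptophan hydroxylase of gut enterochromaffin and pineal cells, starts serotonin synthesis. It had 3310 reads in the MHC-II high library (21.7 CPM), against 167 reads in the MHC-II low library (3.29 CPM), a ratio of 6.58 (5.63 to 7.74). Per length it was the most abundant antigen in the MHC-II high library, at 10.7 CPM per kilobase, against 1.62 CPM per kilobase in the MHC-II low library. Its second listed transcript shares most of these reads, with 3281 reads in the MHC-II high and 162 in the MHC-II low table.

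Ddc, the aromatic amino acid decarboxylase, acts after Th in dopamine synthesis and after Tph1 in serotonin synthesis. It had 2046 reads in the MHC-II high library (13.4 CPM), against 591 reads in the MHC-II low library (11.6 CPM). Its ratio of 1.15 (1.05 to 1.26) lay inside 2-fold. Set against each other, which needs no scaling, the ratio of Th was 10.9 times that of Ddc (7.70 to 15.9) and the ratio of Tph1 was 5.73 times that of Ddc (4.77 to 6.90). The enzymes of the first and the shared second step of this pathway therefore differed in ratio by more than counting error. Both listed Ddc transcripts gave near equal reads, the second having 1936 in the MHC-II high and 576 in the MHC-II low table.

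Of 20 listed genes of monoamine synthesis and transport in both tables, 11 were called higher and 1 lower, and the median log2 ratio was 1.46. These counts include Th, Tph1 and Ddc. Hdc, which makes histamine, had the most reads and was at 603 CPM in the MHC-II high library, against 59.6 CPM in the MHC-II low library (10.1-fold, 9.76 to 10.5). The vesicular monoamine transporter gene Slc18a2 was 12.8-fold higher (10.6 to 15.7), and Pnmt, which converts noradrenaline to adrenaline, 8.92-fold higher (6.58 to 12.4). The serotonin transporter gene Slc6a4 was at 114 CPM in the MHC-II high library, against 47.6 CPM in the MHC-II low library (2.39-fold, 2.29 to 2.50). Spr, an enzyme of the cofactor that both hydroxylases need, was at 65.4 CPM in the MHC-II high and 68.9 CPM in the MHC-II low library. The lower gene, named after its value was seen, was the noradrenaline transporter gene Slc6a2, at 9.28 CPM in the MHC-II high and 20.6 CPM in the MHC-II low library. It lost that call with unscaled totals, DESeq2 size factors and RPKM read totals.

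Markers of cells that make monoamines elsewhere did not all share these ratios. Of 10 neuroendocrine genes 1 was called higher and 5 lower, summing to 409 CPM in the MHC-II high library, against 525 CPM in the MHC-II low library, while with RPKM read totals 2 were higher and 0 lower. Insm1 was 7.08-fold higher, while the granule protein gene Chga was lower, at 72.2 CPM in the MHC-II high library, against 223 CPM in the MHC-II low library. Scg2 was lower as well, at 21.7 CPM in the MHC-II high library, against 88.4 CPM in the MHC-II low library. Of 10 sympathetic neuron genes 2 were called higher and 2 lower, summing to 101 CPM in the MHC-II high and 116 CPM in the MHC-II low library. With RPKM read totals 4 were higher and 0 lower, and with DESeq2 size factors or unscaled totals 1 was lower. Prph was 8.10-fold higher, Ngfr lower (18.6 CPM in the MHC-II high library, against 49.5 CPM in the MHC-II low library, a call lost with RPKM read totals), and Ret was at 25.8 CPM in the MHC-II high and 31.0 CPM in the MHC-II low library. Their part in the ratio of Th was not tested.

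Of 9 mast cell genes, a cell type that makes Tph1, 6 were called higher and 0 lower, summing to 773 CPM in the MHC-II high library, against 142 CPM in the MHC-II low library. Hdc and Kit made up most of that sum. The other 7 came to 36.9 CPM in the MHC-II high library, against 9.73 CPM in the MHC-II low library, with Mcpt4 ahead in reads. Of these 7, 5 were called higher and 0 lower. Cpa3, named after its value was seen, was called neither, at 0.615 CPM in the MHC-II high and 0.374 CPM in the MHC-II low library. Their part in the ratio of Tph1 was not tested.

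Cyp11a1, the mitochondrial enzyme that cleaves the side chain of cholesterol, opens all steroid hormone synthesis. It had 2428 reads in the MHC-II high library (15.9 CPM), against 169 reads in the MHC-II low library (3.33 CPM), a ratio of 4.77 (4.08 to 5.61). Cyp17a1, the hydroxylase and lyase on the way to androgens, had 1946 reads in the MHC-II high library (12.7 CPM), against 101 reads in the MHC-II low library (1.99 CPM), a ratio of 6.40 (5.24 to 7.90). The ratio of Cyp17a1 was 1.34 times that of Cyp11a1 (1.03 to 1.75).

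Cyp21a1, the steroid hydroxylase of the adrenal cortex and a main adrenal autoantigen in patients, was close to the bottom in both libraries. It had 106 reads in the MHC-II high library (0.361 CPM per kilobase), against 51 reads in the MHC-II low library (0.522 CPM per kilobase). Its ratio of 0.69 (0.49 to 0.98) was not beyond 2-fold and turned to 1.38 with the RPKM read totals. It was the 1 antigen of the 9 that missed a mean of 1 CPM over both libraries. The ratios of Cyp11a1 and Cyp17a1 were 6.91 (4.67 to 10.1) and 9.27 times (6.13 to 13.9) that of Cyp21a1. The mouse genome also carries a Cyp21a1 pseudogene, and the sources used here do not say how reads that match both copies were counted, so these reads are uncertain.

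Of 20 listed genes of steroid synthesis, these 3 included, 8 were called higher and 1 lower, with a median log2 ratio of 0.85. Star, which moves cholesterol into the mitochondrion, was at 20.4 CPM in the MHC-II high library, against 4.31 CPM in the MHC-II low library (4.72-fold, 4.12 to 5.44). The nuclear receptor gene Nr0b1 was 14.1-fold higher on 468 reads in the MHC-II high and 11 in the MHC-II low library (7.83 to 28.5), and the dehydrogenase gene Hsd3b1 was 4.22-fold higher (3.00 to 6.10). The electron donors are used by many cells. Fdxr was at 28.2 CPM in the MHC-II high and 13.9 CPM in the MHC-II low library, and its ratio of 2.04 (1.88 to 2.21) was called higher under the other scalings. Por was at 63.3 CPM in the MHC-II high and 83.3 CPM in the MHC-II low library, and Cyb5a at 59.9 CPM in the MHC-II high and 85.7 CPM in the MHC-II low library. The lower gene, named after its value was seen, was the reductase gene Srd5a1, at 6.90 CPM in the MHC-II high and 24.4 CPM in the MHC-II low library, a call lost with RPKM read totals.

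Of 8 marker genes of adrenal and gonadal steroid cells 2 were called higher, the steroid genes Star and Hsd3b1 again, and 0 lower, with 34.7 CPM summed in the MHC-II high and 15.8 CPM in the MHC-II low library. With RPKM read totals 5 were higher, Nr5a1 among them at a ratio of 3.35, its interval starting at 2.69. The defining factor gene Nr5a1 was at 3.23 CPM in the MHC-II high and 1.93 CPM in the MHC-II low library. The Leydig cell hormone gene Insl3 was at 2.92 CPM in the MHC-II high and 5.22 CPM in the MHC-II low library. The corticotropin receptor gene Mc2r, named after its value was seen, had 9 reads in the MHC-II high and 2 in the MHC-II low library. Their part in the ratios of Cyp11a1 and Cyp17a1 was not tested.

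Atp4b, the beta subunit of the proton pump of gastric parietal cells, is a target of autoimmune gastritis in mice and people. It had 940 reads in the MHC-II high library (6.15 CPM), against 38 reads in the MHC-II low library (0.748 CPM), a ratio of 8.22 (5.94 to 11.7). Its catalytic partner Atp4a could not be compared, since its line was in the MHC-II high table alone, with 8038 reads or 52.6 CPM. Per length Atp4a stood at 15.3 CPM per kilobase in that library, where Atp4b stood at 4.63.

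Of 18 listed gastric genes in both tables, Atp4b included, 12 were called higher and 3 lower, with a median log2 ratio of 2.04, and with RPKM read totals 1 was lower. The pepsinogen gene Pgc was 23.3-fold higher (19.6 to 27.9), at 59.2 CPM in the MHC-II high library, against 2.54 CPM in the MHC-II low library. The gastric lipase gene Lipf was 45.4-fold higher on 547 reads in the MHC-II high and 4 in the MHC-II low library (17.6 to 167), and Kcne2, a potassium channel subunit of parietal cells, 25.9-fold higher (14.7 to 50.3). The mucin gene Muc5ac of surface cells was 2.48-fold higher (2.32 to 2.66), and the channel gene Kcnq1 was at 31.5 CPM in the MHC-II high and 43.9 CPM in the MHC-II low library. The 3 lower genes, named after their values were seen, were the histamine receptor gene Hrh2 on 53 reads in the MHC-II high and 116 in the MHC-II low library, the hormone gene Ghrl and Clic6.

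Casr, the calcium-sensing receptor that sets parathyroid hormone release, had 4517 reads in the MHC-II high library (29.6 CPM), against 1383 reads in the MHC-II low library (27.2 CPM). It was the most abundant antigen per length in the MHC-II low library, at 6.01 CPM per kilobase, and stood at 6.52 in the MHC-II high library. Its ratio was 1.08 (1.02 to 1.15). Of 9 parathyroid genes, Casr included, 1 was called higher and 2 lower, and the median log2 ratio was 0.25. With RPKM read totals 5 were called higher and 1 lower. Pth, the hormone itself, was lower, at 8.69 CPM in the MHC-II high library, against 38.5 CPM in the MHC-II low library. The vitamin D receptor gene Vdr was 2.94-fold higher (2.83 to 3.06), and the widely used growth factor receptor gene Fgfr1 was lower, at 5.51 CPM in the MHC-II high library, against 22.9 CPM in the MHC-II low library. The transcription factor gene Gata3 was at 21.9 CPM in the MHC-II high and 18.4 CPM in the MHC-II low library.

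Nlrp5, a maternal protein of the oocyte and a parathyroid autoantigen in patients, had no line in the MHC-II high table. The table breaks off there for a run of 24 consecutive accessions that the MHC-II low table lists, both Nlrp5 transcripts among them, so its level in MHC-II high cells was not measured here. In the MHC-II low library Nlrp5 had 50 reads on each transcript, 0.985 CPM or 0.284 CPM per kilobase, at the 15.6 percentile of all genes. The genes on either side, Nlrp4e and Vmn1r167, were not in both tables either. Of 17 other oocyte genes, 6 were called higher and 0 lower, with a median log2 ratio of 1.23, and 11 were higher with RPKM read totals. The egg coat gene Zp2 was at 71.1 CPM in the MHC-II high library, against 10.4 CPM in the MHC-II low library (6.83-fold, 6.26 to 7.47). Ooep and Khdc3, whose products join Nlrp5 in 1 complex of the egg cortex, were 5.20-fold (4.68 to 5.79) and 6.08-fold higher (4.77 to 7.86). Oosp1 was 17.6-fold higher on 583 reads in the MHC-II high and 11 in the MHC-II low library (9.77 to 35.5), and Zbed3 was at 27.0 CPM in the MHC-II high and 27.9 CPM in the MHC-II low library.

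Tgm4, the transglutaminase of the prostate, had 758 reads in the MHC-II high library (4.96 CPM), against 217 reads in the MHC-II low library (4.27 CPM). Its ratio of 1.16 had an interval of 0.997 to 1.36, which holds 1. Of 8 transglutaminase genes, Tgm4 included, 4 were called higher and 0 lower, with a median log2 ratio of 0.92. The higher ones were Tgm7 (4.57-fold, 3.49 to 6.10), F13a1 (3.69-fold, 3.07 to 4.48), Tgm5 (3.62-fold, 3.30 to 3.99) and Tgm3 (3.08-fold, 2.88 to 3.30). Tgm2, the tissue form, was at 111 CPM in the MHC-II high and 164 CPM in the MHC-II low library, and Tgm1 at 27.2 CPM in the MHC-II high and 31.3 CPM in the MHC-II low library.

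Other prostate and seminal vesicle genes differed more than Tgm4. Of 11 listed, Tgm4 included, 5 were called higher and 1 lower, with a median log2 ratio of 1.28. Sbpl was 14.5-fold higher (12.3 to 17.3), the spermine binding protein gene Sbp 12.7-fold (9.96 to 16.4) and the semen clotting gene Svs2 9.33-fold on 365 reads in the MHC-II high and 13 in the MHC-II low library (5.39 to 17.7). Spink1 was at 72.2 CPM in the MHC-II high and 44.7 CPM in the MHC-II low library, and the phosphatase gene Acpp, the lower one, at 86.2 CPM in the MHC-II high and 177 CPM in the MHC-II low library. Acpp lost that call under every other scaling.

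**Figure D2:**
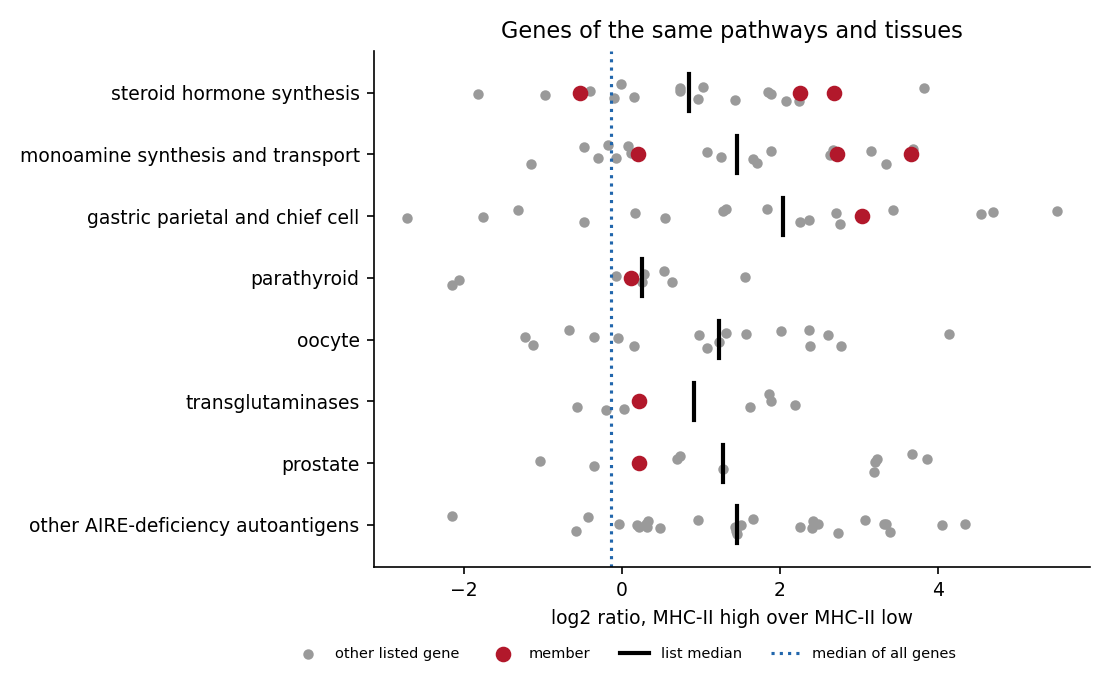
Log2 ratio of the MHC-II high to the MHC-II low library for each gene of 8 lists; red points are the antigens described here, grey points the other genes of the list, black bars the list medians and the dotted line the median of all genes at −0.14. The medians run from 0.25 for parathyroid to 2.04 for gastric genes, and a gene with 0 to 2 reads in a library is drawn with 3 reads there.

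Among 27 other antigens known from AIRE-deficient patients or linked to their organ diseases, 16 were called higher and 1 lower, with a median log2 ratio of 1.45. The interferon gene Ifnb1 was 20.2-fold higher on 365 reads in the MHC-II high and 6 in the MHC-II low library (9.20 to 55.4), the cytokine gene Il22 16.6-fold on 1200 reads in the MHC-II high and 24 in the MHC-II low library (11.1 to 26.0) and the hepatic antigen gene Cyp1a2 10.5-fold (8.42 to 13.2). Cyp2a5, the mouse relative of another liver antigen, was at 576 CPM in the MHC-II high library, against 203 CPM in the MHC-II low library (2.84-fold, 2.78 to 2.90). Sox9, a vitiligo antigen, was at 158 CPM in the MHC-II high and 213 CPM in the MHC-II low library. The lower gene was Pth again. Over the 8 pathway and tissue lists together, without the antigens described here, 55 of 115 genes (47.8%) were called higher and 8 (6.96%) lower. These lists too were written with earlier results of these data known.

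Ranked by ratio, the 9 antigens gave 36 pairs, and the ratios differed by more than counting error in 29 of them. No adjustment over the 36 was made. Between neighbours in this order 3 of 8 steps did so: Casr to Cyp21a1, Cyp11a1 to Cyp17a1, and the step between the groups, where the ratio of Cyp11a1 was 4.11 times that of Tgm4 (3.29 to 5.14). Th and Atp4b, at the top, differed by a factor of 1.53 whose interval held 1 (0.932 to 2.51). Tph1 and Cyp17a1 differed by 1.03 (0.790 to 1.33), and Tgm4 and Ddc by 1.01 (0.843 to 1.21).

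The order of levels per length was not the same in the libraries. In the MHC-II high library it ran Tph1, Cyp11a1, Cyp17a1, Ddc, Casr, Th, Atp4b, Tgm4 and Cyp21a1, from 10.7 down to 0.361 CPM per kilobase. Cyp17a1, Ddc and Casr were next to each other with steps inside counting error, as were Th and Atp4b. In the MHC-II low library the order was Casr, Ddc, Cyp11a1, Tph1, Tgm4, Cyp17a1, Atp4b, Cyp21a1 and Th, from 6.01 down to 0.392. There Casr and Ddc could not be told apart, nor could Cyp11a1 from Tph1, Tph1 from Tgm4, Atp4b from Cyp21a1, or Cyp21a1 from Th. Casr and Ddc held 12.7% and 12.9% of the 9 antigens' summed level per length in the MHC-II high library, against 31.0% and 29.8% in the MHC-II low library. Tph1 held 20.8% in the MHC-II high library, against 8.37% in the MHC-II low library.

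**Figure D3:**
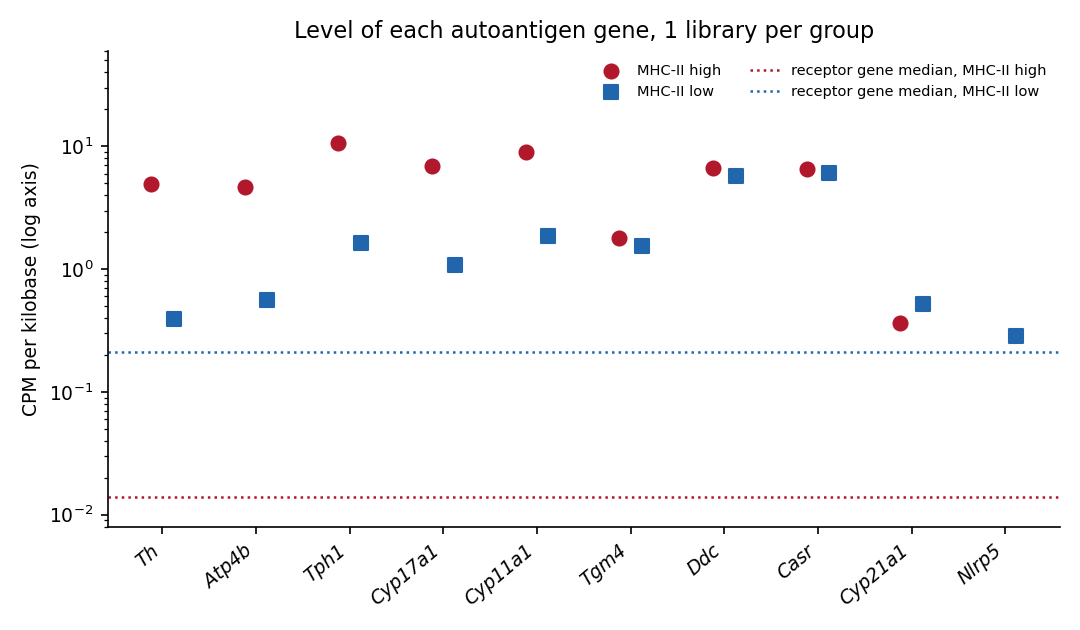
Level of each antigen in CPM per kilobase on a log axis, with circles for the MHC-II high and squares for the MHC-II low library, ordered by ratio; Nlrp5 has a value in the MHC-II low table alone. Dotted lines are the medians of 1420 olfactory and vomeronasal receptor genes, 0.0139 in the MHC-II high and 0.211 in the MHC-II low library, and the MHC-II low squares of Th and Nlrp5, at 0.392 and 0.284, lie closest to their line.

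The RPKM values that the authors deposited rest on other read totals and give larger ratios. In that unit Tph1 was at 7.64 in the MHC-II high library, against 0.579 in the MHC-II low library, and Th at 3.52 in the MHC-II high library, against 0.140 in the MHC-II low library. Casr was at 4.66 in the MHC-II high and 2.14 in the MHC-II low library, Ddc at 4.74 in the MHC-II high and 2.06 in the MHC-II low library, and Tgm4 at 1.28 in the MHC-II high and 0.551 in the MHC-II low library. On this scale even these 3 were at over 2 times the level in the MHC-II high library, and the interval of Tgm4 reached below 2-fold.

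Low values in the MHC-II low library were set beside the reads on sensory receptor genes. Among 1420 olfactory and vomeronasal receptor genes, a set chosen after the tables were seen, 67.2% had a read in the MHC-II high library and 94.9% in the less deeply read MHC-II low library. Of the 1384 with a read in either library, 58.9% were called lower and 1.08% higher. The 95th percentile of the 1420 was 0.275 CPM per kilobase in the MHC-II high and 0.746 in the MHC-II low library. In the MHC-II high library 0 of the 9 antigens lay under that percentile. In the MHC-II low library 3 did, Th, Atp4b and Cyp21a1, at 0.392, 0.564 and 0.522 CPM per kilobase. Nlrp5, with a value in the MHC-II low table alone, lay under it too, at 0.284 CPM per kilobase and near the receptor median of 0.211. Where these receptor gene reads come from, and the part of such reads in the ratios, was not tested.

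The genes next to the antigens did not all share their ratios. Of 18 nearest protein-coding genes in both tables, taken by order in the RefSeq gene table, 6 were called higher, 1 lower and 11 neither. Over all genes with a read, 12.4% were called higher and 16.7% lower. Both neighbours of Atp4b were called higher, the cell cycle factor gene Tfdp1 by 3.48-fold (3.31 to 3.65) and the rhodopsin kinase gene Grk1 by 2.74-fold (2.36 to 3.19). So were both neighbours of Cyp11a1, Sema7a by 2.29-fold (2.17 to 2.42) and Ccdc33 by 2.62-fold (2.38 to 2.88). Beside Th, the insulin gene Ins2, itself an autoantigen, was 5.58-fold higher (4.31 to 7.33), and Ascl2 had a ratio of 1.53, called higher with RPKM read totals. Each of these lay below the ratio of the antigen it flanks.

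Tph1 and Cyp17a1 stood alone. The genes beside Tph1, Sergef and Saal1, had ratios of 0.55 and 0.69, and those beside Cyp17a1, Wbp1l and Borcs7, ratios of 1.03 and 0.83, though Wbp1l was called higher with RPKM read totals. Around Casr the picture was turned round, with the costimulatory gene Cd86 higher, at 31.7 CPM in the MHC-II high library, against 2.64 CPM in the MHC-II low library, and Stfa3 at a ratio of 2.25 (1.92 to 2.66), called higher under the other scalings. Tgm4 lay between Tmem42 and Zdhhc3, at 0.85 and 0.76, and Ddc between Fignl1 and Grb10, at 1.92 and 0.99. Fignl1 was called higher with unscaled totals and with RPKM read totals. Beside Cyp21a1 the complement gene C4b was lower, with 6.10 CPM in the MHC-II high library, against 47.0 CPM in the MHC-II low library, and Stk19 was at 13.5 CPM in the MHC-II high and 21.3 CPM in the MHC-II low library.

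**Figure D4:**
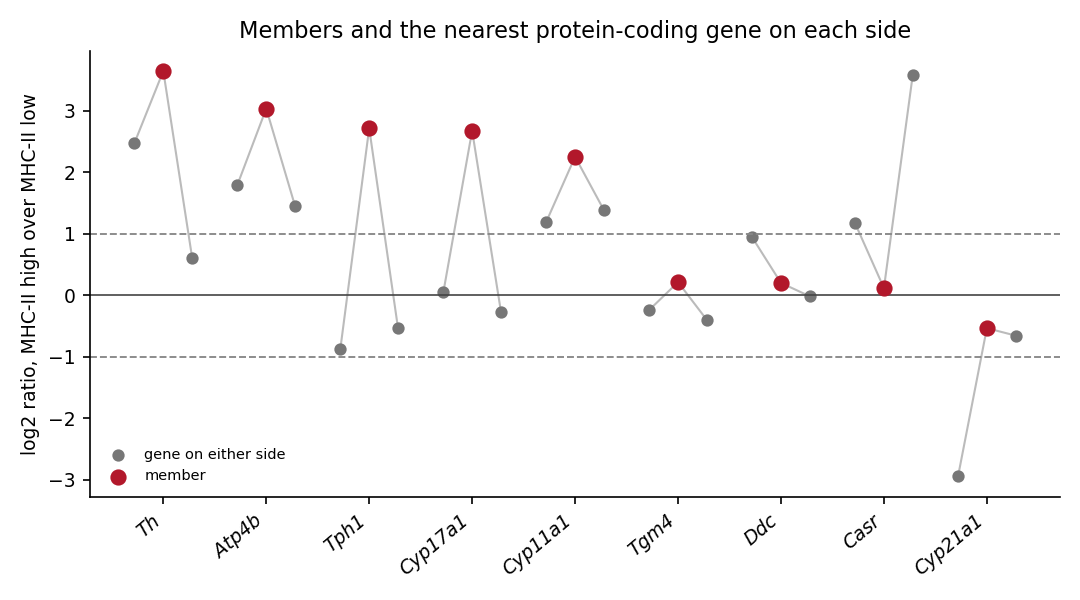
Log2 ratio of the MHC-II high to the MHC-II low library for each antigen (red) and the nearest protein-coding gene before and after it in the RefSeq gene table (grey), with dashed lines at 2-fold. Tph1 and Cyp17a1 rise above flanking genes that lie inside 2-fold, while Casr, at 0.12, lies below both of its neighbours.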

How the data were processed

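Poly-A RNA of 2 libraries was compared, 1 per group. Per the submitters' processing notes, build mm9, CASAVA, Bowtie 1.0.0 and bedtools were used, with no settings. The authors deposited, per the file headers, a raw read count, a length and an RPKM value for each RefSeq transcript. The counts were used here, and the deposited RPKM served to recover the read totals behind it, 213854095 in the MHC-II high table and 142330178 in the MHC-II low table. Stray lines (18 and 36) were left out, further genomic copies summed, and 29800 accessions with the same length in both tables kept. Accessions in 1 table only were not read as 0. Symbols came from RefSeq (GRCm38.p6) and GENCODE, 394 accessions having none. The transcript with the most reads stood for a gene.

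TMM totals were 152834157 (MHC-II high) and 50769794 (MHC-II low), from genes with a mean of at least 1 CPM (edgeR 4.0.16, R 4.3.3; DESeq2 1.42.0 size factors as an alternative; scipy 1.17.1). A count of 0 was read as up to 3 reads, 0.0196 CPM in the MHC-II high and 0.0591 CPM in the MHC-II low library. Intervals cover counting error only, since there was 1 library per group. PCR reads carry no molecular identifiers, so copies of the same molecule may be counted separately, and the intervals may be too narrow even for counting error. Without strand, overlapping genes cannot be told apart. Named from each list were the 3 genes with the most reads and, outside marker lists, the 3 with the largest log2 ratio in either direction among genes with at least 20 reads, plus both neighbours of each antigen. The antigens and lists were chosen with earlier results of these data known. Some listed genes that this rule names are not reported here.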

Additional observations from a re-analysis of the deposited data

Results flagged for a closer look

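Reads were listed for genes that the comparison could not use, because each has a line in 1 table only. Nlrp5 had 50 reads in the MHC-II low table, more than the 3 reads that a count of 0 allows. At 0.284 CPM per kilobase it lay under the 95th percentile of the olfactory and vomeronasal receptor genes in that library, 0.746. Its level is therefore not told apart from that of the receptor genes. Atp4a, the partner of Atp4b, had 8038 reads in the MHC-II high table. Nlrp5 belongs to a run of 24 accessions listed in the MHC-II low table alone, and Atp4a to a run of 63 listed in the MHC-II high table alone.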

How the results depend on the processing

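No paired analysis was possible because each group had 1 library and the labels carry no replicate numbers, and for the same reason no library could be left out. The antigens called higher numbered 5 under every alternative run except the RPKM read totals, where they were 7, and the antigens called lower were 0 except when Nlrp5 was read as 0 in the MHC-II high table, which made 1. Over scalings and transcript choices the ratio of Th ran from 12.6 to 25.2, Atp4b from 8.22 to 16.5, Tph1 from 6.58 to 13.2, Cyp17a1 from 6.40 to 12.8, Cyp11a1 from 4.77 to 9.56, Tgm4 from 1.16 to 2.32, Ddc from 1.14 to 2.30, Casr from 1.08 to 2.17 and Cyp21a1 from 0.69 to 1.38. Of all genes, 2837 were called higher and 3822 lower. With the RPKM read totals these were 8501 and 1723, with unscaled totals 3832 and 2997, with whole intervals beyond 4-fold 944 and 1727, and with a mean of at least 1 CPM 2530 and 1907. Over the pathway and tissue lists 55 genes were called higher and 8 lower. Beyond 4-fold these were 29 and 2, while 2 were lower with RPKM read totals and 5 with unscaled totals. Of 102 named genes the RPKM read totals added 15 calls and ended 10, unscaled totals added 7 and ended 3, DESeq2 size factors and TMM over all genes each added 3 and ended 2, summed transcripts added 1 and ended 1, and 0 changed direction. TMM over all genes, chosen after seeing the data, called 5 antigens higher and 0 lower. The shift from scaling follows from its construction, as it moves every log2 ratio alike. Depth limits Cyp21a1, on 106 reads against 51, and the reads of Th and Atp4b in the MHC-II low library, 35 and 38.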
